A study of Homo sapiens with 17 samples.

Results

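The genes of 10 proteins that form RNA polymerase II or hold it and release it near promoters were examined as transcription units: POLR2A, SUPT4H1, SUPT5H, NELFA, NELFB, NELFCD, NELFE, CDK9, CCNT1 and HEXIM1. The members were chosen by name, and the sites taken were the rows of the deposited pausing-time tables that lie inside the GENCODE release 29 (GRCh38) span of one of these 10 genes on the gene's own strand. These were 133 of 204137 rows, at 100 different positions. All libraries came from HEK293, an established line made from human embryonic kidney cells with adenovirus DNA, and the labels name no drug for the groups used here. Permeabilised cells were given run-on reactions of 0.5, 2, 8 or 32 min, either with the detergent sarkosyl in the run-on buffer or without it, in 2 replicates that the series text calls biological. The authors gave 1 table for each buffer and replicate, and each such table is called a series. That each was fitted over the 4 run-on times is inferred from the table names and sample titles. The value of a row is a pausing time, the reciprocal of a fitted rate at 1 position, and its unit was not stated.

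Polymerase II initiates, moves a short distance and is held there by the negative elongation factor NELF and the DRB sensitivity-inducing factor DSIF. The kinase P-TEFb, made of CDK9 and a cyclin T, phosphorylates both factors and the polymerase, after which NELF leaves and DSIF travels on with the elongating enzyme. P-TEFb is itself kept inactive by HEXIM1 in a complex with the 7SK RNA, and HEXIM1 is a widely used marker gene of released P-TEFb. Sarkosyl removes many proteins from chromatin while engaged polymerases continue to elongate, so a run-on with it and one without it read polymerases with different sets of bound factors.

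In the order sarkosyl replicates 1 and 2, then sarkosyl-free replicates 1 and 2, which is kept wherever 4 values are listed, the series held 48566, 47713, 66089 and 41769 sites, with median pausing times of 1.49, 1.34, 2.23 and 8.00. The tables hold no read numbers, so the depth behind a site is unknown, and a position that is not listed may lack pausing or lack reads, which cannot be told apart. Of 6 genes used as HEK293 markers, 2, 2, 2 and 1 had a site, led by VIM with 20, 19, 16 and 10 sites, while PAX2 and LHX1 had none in any series. Of 6 blood-cell genes, 0, 1, 0 and 0 had a site, PTPRC with 1 site in sarkosyl replicate 2. No batch is named in the labels, and batch and buffer cannot be told apart if they coincide.

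The sequences around some member sites show the bases at the listed positions. Only stretches whose bases could be read are shown. The bases of the upstream SUPT5H cluster, described below, could not be read, so a less dense SUPT5H stretch is given. Each stretch is 30 bases of the gene's sense strand, 5′ to 3′, on GRCh38, from the GENCODE release 29 transcripts or the RefSeq promoter table (GRCh38.p14). Capitals mark the listed positions, and bases are counted from the nearest annotated start. Each stretch holds at least 5 member rows, or a position listed in at least 3 series, and 1 stretch is shown per gene.
HEXIM1, 17 to 46 bp after its start, chr17:45148519-45148548, plus strand, 5′ UTR: gtcgGgggaggacGcggaagagGagCtgtg
NELFCD, 42 to 71 bp, chr20:58981317-58981346, plus strand, first exon: aggactaCtacgggagcgCggcCgagtggg
POLR2A, 46 to 75 bp, chr17:7484412-7484441, plus strand, first exon: GGctcCcggaagggggaGagacaaactgcC
SUPT4H1, 11 to 40 bp, chr17:58352096-58352125, minus strand, first exon: agacggtgcCgaaGgacCtGcGgcatctgc
SUPT5H, 5 to 34 bp after a downstream start, chr19:39445649-39445678, plus strand, first intron of the reference transcript: tgcagagGtggcagttCCgggCGccgggga
CCNT1, near the end of the last exon, chr12:48689542-48689571, minus strand, 3′ UTR: tttaagcagtctatgCaactcatcaaatgg

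The base at the listed position could be read for 54 of the 100 member positions. It was C or G in all but 3 of the readings. In sarkosyl replicate 1 it was C in 14 and G in 6 of 21 member rows, and in sarkosyl replicate 2 it was C in 15 and G in 6 of 22. In sarkosyl-free replicate 1 it was C in 12 and G in 14 of 27, and in sarkosyl-free replicate 2 it was C in 2 and G in 7 of 9. The balance of the 2 bases thus went from mainly C in both sarkosyl series to mainly G in sarkosyl-free replicate 2. The same order held over all sites that fall in the RefSeq promoter table. There C made up 70.0%, 69.7%, 49.9% and 26.5% of the positions, and G made up 28.4%, 27.0%, 48.7% and 71.7%. All readable bases of the member genes, listed or not, were 26.0% C and 27.4% G. The promoter windows, where many of the sites lay, were not counted apart. In HEXIM1 the G at 39 bp was listed in both sarkosyl-free series and in neither sarkosyl series, whereas the C at 142 bp was listed in both sarkosyl series and in neither sarkosyl-free series. POLR2A had the same split, with the G at 63 bp in both sarkosyl-free series and the C at 75 bp in both sarkosyl series. The split was not complete. HEXIM1 also had a T at 134 bp and a G at 1024 bp in both sarkosyl series and in neither sarkosyl-free series. These are shares of listed positions within 4 series, and sites of a series share its libraries.

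Sites in the 10 genes made up 0.0865% and 0.0838% of all sites with sarkosyl, and 0.0560% and 0.0335% without it, which is 42, 40, 37 and 14 rows. The mean share was 0.0852% ± 0.00187 (SD, n = 2) with sarkosyl and 0.0448% ± 0.0159 (SD, n = 2) without it. The buffers did not overlap in this share, with p = 0.33 by a two-sided exact permutation test, below which 2 series against 2 cannot go. Positions were seldom found again: 75 were listed in 1 series, 20 in 2, 2 in 3 and 3 in all 4. With sarkosyl 17 positions were listed in both replicates, 42.5% of the smaller set and 40.5% of the larger. Without sarkosyl 6 positions were, 42.9% of the smaller set and 16.2% of the larger. Of the 100 positions, 55 were listed with sarkosyl alone, 35 without sarkosyl alone and 10 with both buffers.

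The pausing times at positions listed in both replicates of a buffer, compared as deposited, give the replicate error. This error includes any difference in level between the series, whose medians were 2.23 and 8.00 without sarkosyl. Over the 17 sarkosyl positions the median absolute difference was 0.46 on the log2 scale, and 13 lay within 2-fold of each other. Over the 6 sarkosyl-free positions it was 0.82, with 4 within 2-fold. The widest gap was 6.19 on the log2 scale, at the G 30 bp into SUPT4H1, with pausing times of 0.654 and 47.6 in the sarkosyl-free replicates. The authors' quartile ranges of these readings, 0.280 to 1.33 and 34.5 to 66.7, did not overlap, so the gap at this site exceeded the error the authors gave for it.

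**Figure D1:**
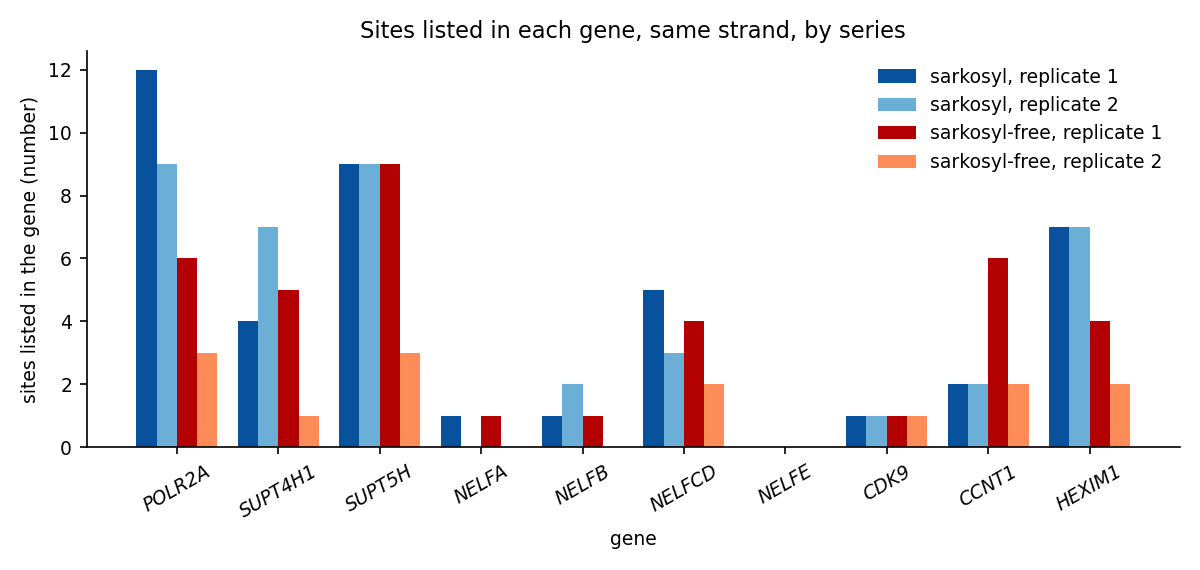
Number of listed sites (vertical axis) in each of the 10 genes (horizontal axis) in the 4 series, shown as bars. POLR2A ran from 12 sites in sarkosyl replicate 1 to 3 in sarkosyl-free replicate 2, HEXIM1 had 7, 7, 4 and 2, and NELFE had none.

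POLR2A encodes the largest, catalytic subunit of polymerase II and spans 7484366 to 7514616 on the plus strand of chromosome 17. It had 12 and 9 sites with sarkosyl and 6 and 3 without it, and its median pausing time was 2.61, 0.971, 5.55 and 2.82. In its promoter window, taken as 0 to 300 bp downstream of an annotated start, the position 63 bp from the start had pausing times of 20.8 and 41.7 in the sarkosyl-free series. The position 75 bp from the start had 1.84 and 0.858 in the sarkosyl series. These sarkosyl-free times were long and these sarkosyl times short, but the sarkosyl-free series also had short times in this window, 0.196 at the G at 46 bp in replicate 1 and 1.09 at the G at 43 bp in replicate 2. Beyond the window, 17 of its 24 positions were intronic and 13 of these lay in the first intron. Their times in the first intron ranged from 0.681 to 22.7, and none of the 13 was listed in sarkosyl-free replicate 1.

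DSIF has a small subunit, encoded by SUPT4H1, and a large one, encoded by SUPT5H. SUPT4H1 lies on the minus strand of chromosome 17, from 58345175 to 58353093, and had 4, 7, 5 and 1 sites. A same-strand gene, AC004687.2, covers all of its sites, and RNF43 covers the outermost ones, so reads of these genes cannot be told apart there. The C 20 bp from a start had pausing times of 0.751 and 0.930 with sarkosyl. The longest member time of sarkosyl replicate 1, 90.9, lay 220 bp from a start in its first intron and was listed in that series alone. The median of the gene was 1.41, 2.08, 2.11 and 47.6, the last from its 1 site.

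SUPT5H lies on the plus strand of chromosome 19, from 39436156 to 39476670, and had 9, 9, 9 and 3 sites. Its promoter-window sites fell in 2 clusters. The upstream one lay 41 to 81 bp from the outermost start, before the first exon of the reference transcript, and held 8 positions. There the position at 66 bp had pausing times of 1.62 and 1.72 with sarkosyl and 0.189 in sarkosyl-free replicate 1. That of 0.189 was the shortest member time of its series, and the neighbouring base, at 65 bp, held the shortest member time of sarkosyl-free replicate 2, 0.201. The position at 81 bp had the longer times of 8.85 and 6.29 with sarkosyl and was not listed without it. In the downstream cluster, the C at 22 bp had 2.42 and 1.47 and the C at 26 bp had 1.77 and 1.04, again with sarkosyl. Without sarkosyl the bases adjoining these held short times, 0.363 at 21 bp in replicate 1 and 0.271 at 27 bp in replicate 2. Not all sarkosyl-free times were short, since the downstream cluster also held 23.8, at 12 bp in replicate 1. The other SUPT5H position listed with both buffers, chr19:39445635, a G 27 bp from its nearest start, had 0.667 in sarkosyl replicate 1 and 1.01 in sarkosyl-free replicate 1, so the order there was opposite to that at 66 bp of the upstream cluster.

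The 4 NELF genes differed widely in how much could be measured. NELFCD, which encodes the C or D subunit of the complex, lies on the plus strand of chromosome 20, from 58981208 to 58995133, and had 5, 3, 4 and 2 sites. It held 2 of the 3 member positions listed in all 4 series, both at a C in its first exon. At 49 bp from the start the sarkosyl series gave 0.883 and 0.667 and the sarkosyl-free series 1.43 and 0.883. At 60 bp the sarkosyl series gave 1.16 and 0.898 and the sarkosyl-free series 2.66 and 3.64. The buffers overlapped at the first of these positions and did not at the second.

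NELFA and NELFB, which encode further subunits, had a site in 2 and 3 of the series. NELFA (chromosome 4, 1982714 to 2041903, minus strand) had 1 site with a time of 0.803 in sarkosyl replicate 1 and 1 with a time of 11.1 in sarkosyl-free replicate 1, at different bases 13 and 56 bp from annotated starts. NELFB (chromosome 9, 137255173 to 137273546, plus strand) had no site in its promoter window. Its position in exon 10 had 7.30 in sarkosyl replicate 2 and 0.942 in sarkosyl-free replicate 1, and its position in exon 12 had 0.508, the shortest member time of sarkosyl replicate 1. NELFE, which encodes the RNA-binding subunit (chromosome 6, 31952087 to 31959110, minus strand), had 0 sites in all 4 series. Of 19969 annotated protein-coding genes, whether or not expressed in these cells, 43.5% had no site in any series. All 44 other pathway genes, described below, had a site in at least 1 series. Sites on alternate contigs of chromosome 6, described at the end, were not assigned to any gene. A site in every series was found in 4985 of the protein-coding genes and in 7 of the 10 members.

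P-TEFb was represented by its kinase and by cyclin T1. CDK9 (chromosome 9, 127785679 to 127790787, plus strand) had 1 site in each series, at 4 different positions. Its times were 1.41 in the first intron and 1.41 at a C 105 bp from a start with sarkosyl. Without sarkosyl they were 14.3 at a G 39 bp from a start and 25.6 at a G in the 3′ UTR. Both sarkosyl-free times exceeded both sarkosyl times, but they come from other bases of the gene. CCNT1 (chromosome 12, 48688458 to 48716998, minus strand) had 2, 2, 6 and 2 sites, and its median was 3.28, 1.35, 2.55 and 18.7. Its 3′ UTR position shown above was listed in 3 series, with 0.854 and 1.39 with sarkosyl and 0.389 in sarkosyl-free replicate 1.

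HEXIM1 is a gene without introns on the plus strand of chromosome 17, from 45148502 to 45152101. It had 7 and 7 sites with sarkosyl and 4 and 2 without it, and 9 of its 12 positions lay within 142 bp of its start. The G at 30 bp was listed in all 4 series, at 0.574 and 0.672 in the sarkosyl series and at 27.8 and 14.5 in the sarkosyl-free series. The authors' quartiles of these times were 0.399 to 0.836 and 0.447 to 1.04 with sarkosyl, and 19.6 to 40.0 and 9.80 to 20.8 without it. The buffers did not overlap, neither in the times nor in these ranges. The G at 39 bp had 40.0 and 33.3 without sarkosyl, the first being the longest member time of sarkosyl-free replicate 1. The position at 21 bp did not share the pattern, with 0.818 in sarkosyl replicate 1 and 0.962 in sarkosyl-free replicate 1. Long times with sarkosyl lay further down, 71.4 and 8.62 at the T at 134 bp and 9.17 and 6.67 at the C at 142 bp. Thus both buffers gave long times within 142 bp of the HEXIM1 start, at different bases.

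**Figure D2:**
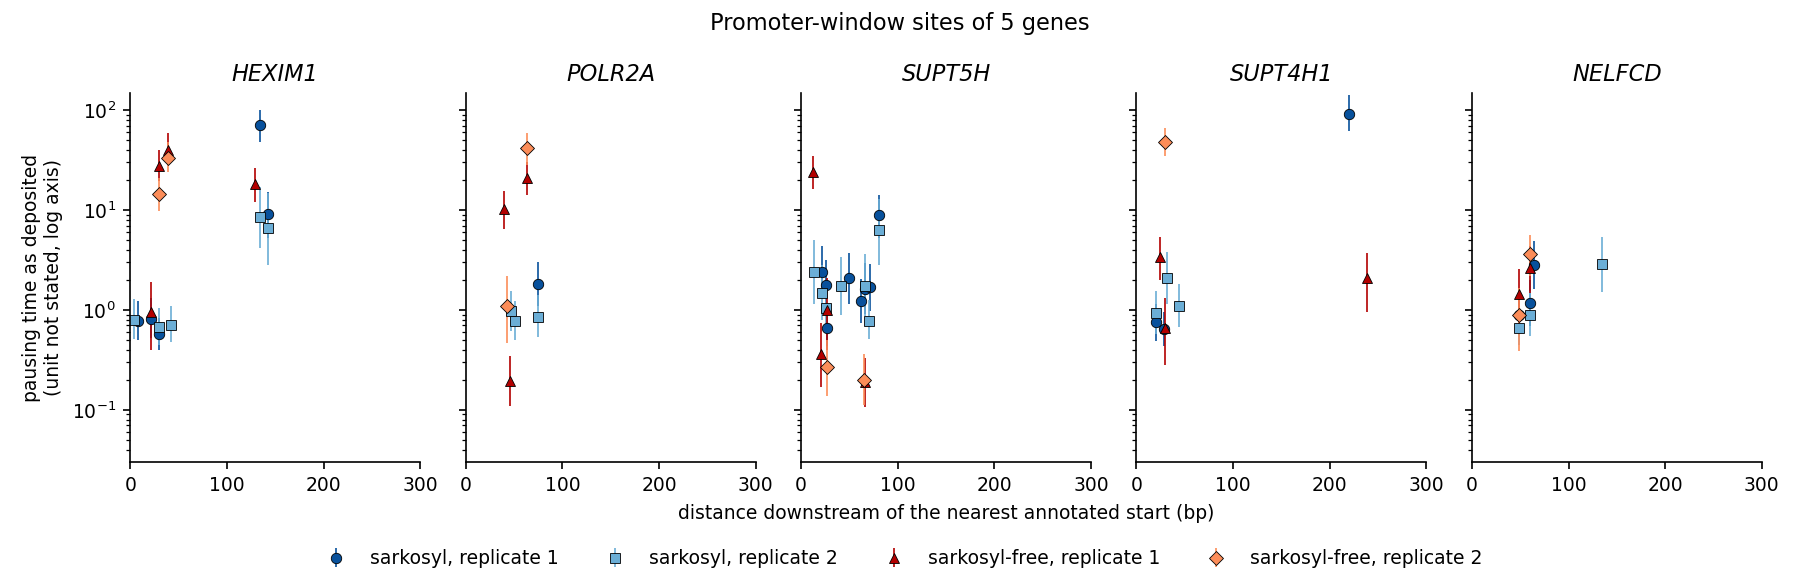
Pausing time as deposited (vertical log axis, unit not stated) against distance downstream of the nearest annotated start in bp (horizontal axis), for the promoter-window sites of 5 genes. Points are sites of the 4 series and bars the authors' quartiles; at 30 bp in HEXIM1 the sarkosyl series stand at 0.574 and 0.672 and the sarkosyl-free series at 27.8 and 14.5, whereas the NELFCD sites stay between 0.667 and 3.64.

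Over all 10 genes, 48 of the 100 positions lay in a promoter window, in 22, 22, 18 and 9 rows. This is 52.4% and 55.0% of the member rows with sarkosyl and 48.6% and 64.3% without it. In all protein-coding genes the shares were 45.3%, 35.8%, 24.2% and 24.2%, below the members' share in each series. With the outermost start of each gene alone, the members' shares were 33.3%, 37.5%, 27.0% and 50% and those of all protein-coding genes 27.5%, 20.9%, 13.9% and 13.9%. Between buffers the members' share differed by -2.78 percentage points (sarkosyl minus sarkosyl-free), with overlapping groups and a two-sided exact permutation p of 1. Within a series, the median log2 pausing time of the members' promoter sites minus that of their other sites was -0.25, -0.73, 1.22 and -2.35. The mean was -0.49 ± 0.34 (SD, n = 2) with sarkosyl and -0.56 ± 2.53 (SD, n = 2) without it, and its sign differed between the sarkosyl-free replicates. In all protein-coding genes the same difference was -0.43, -0.30, -0.48 and -0.53.

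The order of the genes by pausing time was compared with the median of the whole series, to take out the different levels of the tables. With sarkosyl, the gene medians of the 7 genes measured in every series lay within 0.87 of the series median on the log2 scale. SUPT5H was 0.17 and 0.14 above it, CDK9 was -0.08 and 0.08 from it, and HEXIM1 was -0.87 and 0.20 from it. Without sarkosyl the same genes spread out, some on few sites. CDK9 had 1 site in each sarkosyl-free series, and SUPT4H1 had 1 and HEXIM1 2 in sarkosyl-free replicate 2. The 27 other pathway genes with a site in every series, described below, spread out too. Their gene medians ran from 0.623 to 13.3 and from 0.742 to 4.29 with sarkosyl. Without it they ran from 0.336 to 15.4 and from 0.577 to 74.8. HEXIM1 lay 3.33 and 1.46 above the series median, CDK9 lay 2.68 and 1.68 above it, and SUPT5H stood at -2.62 and -4.88. SUPT4H1, at -0.08 and 2.57, and POLR2A, at 0.43 and -1.50, changed place between the sarkosyl-free replicates and cannot be ordered against their neighbours.

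**Figure D3:**
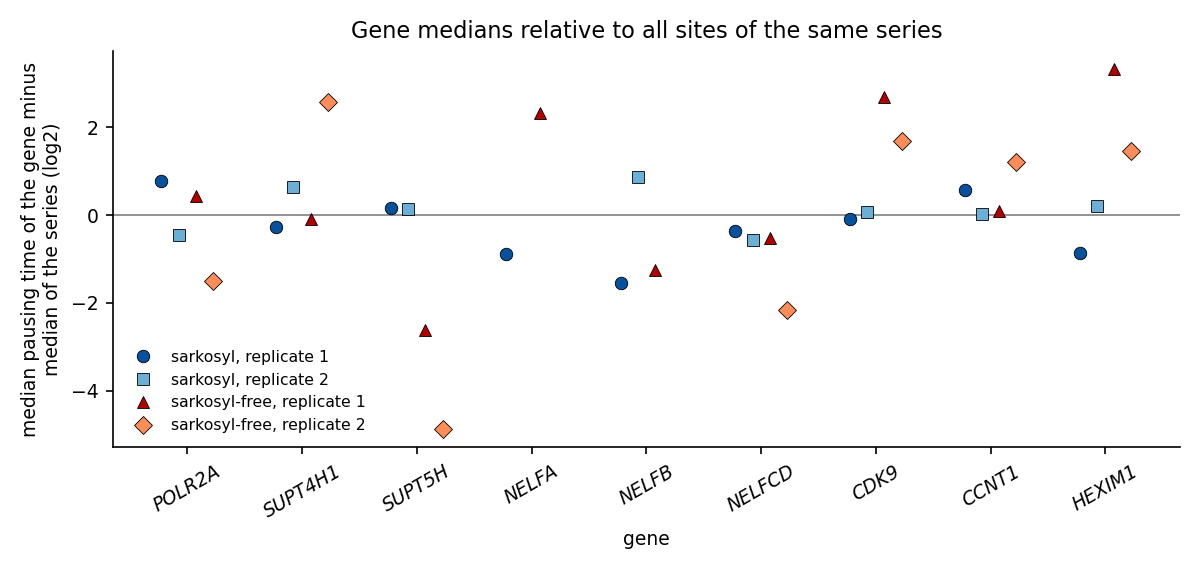
Median log2 pausing time of each gene minus the median of its series (vertical axis) for the 9 genes with a site (horizontal axis); each point is 1 series. HEXIM1 and CDK9 stand above 0 in both sarkosyl-free series and SUPT5H stands below it at -2.62 and -4.88, while the sarkosyl points of these 3 genes lie between -0.87 and 0.20.

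The buffers were compared over gene medians with limma, with each series centred on the median of the tested genes. Of 6028 genes with a site in every series, 0 (0%) passed a Benjamini-Hochberg adjusted p of 0.05. At an unadjusted p under 0.05 there were 694 (11.5%), with 8.84% of all tested genes higher with sarkosyl and 2.67% lower, and 1 member was among the higher and 2 among the lower. SUPT5H had a difference, sarkosyl minus sarkosyl-free, of 3.72 on the log2 scale (SE 0.98; limma unadjusted p = 0.0091, adjusted p = 0.37). HEXIM1 had -2.92 (SE 0.95; limma adjusted p = 0.37) and CDK9 had -2.37 (SE 0.78; limma adjusted p = 0.37). These 3 of the 7 members tested had groups that did not overlap, against 43.7% of all genes tested, and none of them passed the adjusted threshold. SUPT4H1 had -1.25, CCNT1 -0.56, NELFCD 0.68 and POLR2A 0.50, each with overlapping groups, and the signs of NELFCD and POLR2A turned without centring, which moved the median of all genes from 0.22 to -1.17, and with quantile normalisation, which moved it to -0.03. The median over the 7 members was -0.56 and over all tested genes 0.22. Without sarkosyl-free replicate 1, SUPT5H had 4.86 with a limma adjusted p of 0.014, the lone sarkosyl-free series being assumed to vary like the sarkosyl ones, and 1034 of all genes were then called. Over its alternatives this adjusted p ran from 0.014 to 0.9996. With the more certain 50% of the sites of each series, by the authors' quartiles, SUPT5H had -0.0349, HEXIM1 -1.49 and SUPT4H1 -0.17.

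**Figure D4:**
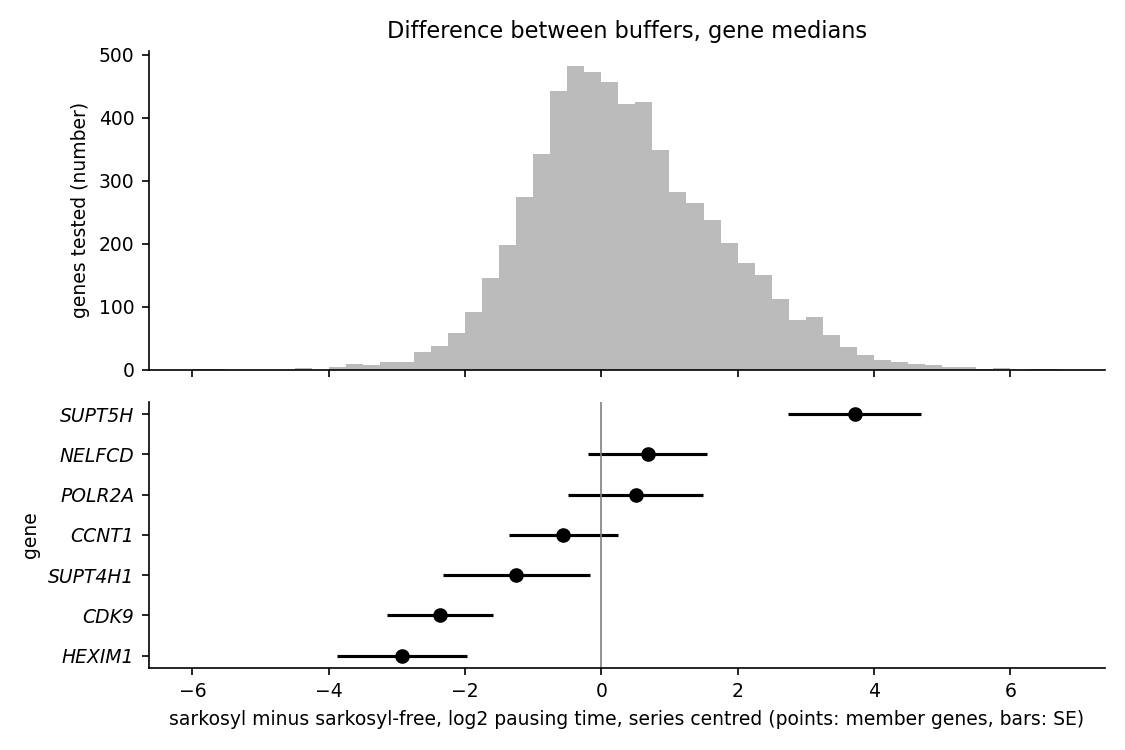
Upper panel: number of genes tested (vertical axis) by their difference in log2 pausing time, sarkosyl minus sarkosyl-free (horizontal axis). Lower panel: the 7 members tested, with SE as bars, from HEXIM1 at -2.92 to SUPT5H at 3.72, inside the range of all genes.

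The same comparison within the promoter window covered 2750 genes, of which 0 passed the adjusted threshold and 439 (16%) had an unadjusted limma p under 0.05, 9.35% of all tested genes higher with sarkosyl and 6.62% lower. Among these were 1 member higher, SUPT5H, and 1 lower, HEXIM1. HEXIM1 had promoter medians that differed by -3.74 on the log2 scale (SE 0.90; limma unadjusted p = 0.0071, adjusted p = 0.27). No gene of this fit had a smaller adjusted p, but the value was shared, so it does not rank HEXIM1 first. INTS11, described below, had the same adjusted p at a limma unadjusted p of 0.019. SUPT5H again had the opposite sign, with 3.24 (SE 1.15; limma adjusted p = 0.28). SUPT4H1 had -2.43 (limma adjusted p = 0.38), POLR2A -1.68 (adjusted p = 0.45) and NELFCD 0.17 (adjusted p = 0.95). In 4 of the 5 members tested the groups did not overlap, against 51.5% of all genes tested. The median of the 5 was -1.68 and of all genes 0.24. With the more certain 50% of sites, HEXIM1 had -1.33, SUPT4H1 -0.17 and POLR2A -0.34. Leaving out each series in turn gave -0.89 to -3.96 for SUPT4H1, -0.67 to -2.70 for POLR2A, 1.84 to 4.64 for SUPT5H and -3.01 to -4.47 for HEXIM1, with both ends of each range from leaving out a sarkosyl-free series. Without sarkosyl-free replicate 1, HEXIM1, SUPT5H and SUPT4H1 passed the adjusted limma threshold, with adjusted p of 0.019, 0.017 and 0.017, together with a total of 1065 of all genes. Over their alternatives these adjusted p ran up to 0.9999.

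At single positions, 2967 sites were listed in all 4 series, and limma called 0 of them at an adjusted p of 0.05, with 689 (23.2%) at an unadjusted p under 0.05, 12% of all sites tested higher with sarkosyl and 11.2% lower. The 3 member sites had lower mean values with sarkosyl, and 1 of them, in HEXIM1, had an unadjusted p under 0.05. The G at 30 bp in HEXIM1 differed by -4.88 on the log2 scale (SE 0.77; limma unadjusted p = 0.00085, adjusted p = 0.15). No site of the fit had a smaller adjusted p, but sites with different unadjusted p can share this lowest value after the adjustment. It therefore does not rank the HEXIM1 site first. The NELFCD position at 60 bp differed by -1.47 (SE 0.72; limma adjusted p = 0.28) and that at 49 bp by -0.41 (SE 0.76; adjusted p = 0.77). Groups did not overlap at 2 of the 3, against 57.3% of all sites tested. The HEXIM1 site passed the adjusted threshold with quantile-normalised series (limma adjusted p = 0.042), without sarkosyl-free replicate 1 (0.0080) and without sarkosyl-free replicate 2 (0.027), and without sarkosyl replicate 1 its adjusted p was 0.98. With the more certain 50% of sites, where 127 sites were left to test and to centre on, the same times gave -1.58 (limma adjusted p = 0.40). Leaving out these replicates gave 1597 and 660 called sites over the whole fit, and the NELFCD position at 60 bp had a limma adjusted p of 0.045 without the first of them.

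The number of sites per gene was compared as log2 of sites per 10000 sites of the series, with 0.5 added. Of 3316 genes 0 passed the adjusted limma threshold, and 752 (22.7%) had an unadjusted p under 0.05, 9.23% of all tested genes higher with sarkosyl and 13.4% lower. The members among them were POLR2A and HEXIM1, both higher. POLR2A had more sites with sarkosyl in each replicate, by 1.02 on the log2 scale (SE 0.31; limma unadjusted p = 0.0087, adjusted p = 0.12). HEXIM1 did too, by 0.91 (SE 0.30; limma unadjusted p = 0.013, adjusted p = 0.15). SUPT4H1 had 0.74, SUPT5H 0.65, NELFCD 0.34 and CCNT1 -0.36. CCNT1 reached the required mean of 3 sites through the sarkosyl-free series alone, so its difference is no evidence of one. In the other 5 members tested the groups did not overlap, against 56.3% of the genes tested, and the value was higher with sarkosyl. Leaving out each series in turn gave 0.36 to 1.13 for SUPT4H1, 0.35 to 0.96 for SUPT5H, 0.12 to 0.56 for NELFCD and -0.10 to -0.62 for CCNT1. Leaving out sarkosyl replicate 1 or 2 gave 58 or 65 called genes, with no member among them.

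A list of 44 other genes of the same pathway, among them further polymerase II subunits, the super elongation complex, TFIIH kinase, PAF1 complex and Integrator genes, gives the wider setting. All 44 had a site in at least 1 series and 27 in every series. In the gene-level limma fit 0 of the 27 passed the adjusted threshold. At an unadjusted p under 0.05, 2 were higher with sarkosyl, ELL2 (2.46) and SUPT16H (2.62), and 2 lower, INTS6 (-2.67) and INTS11 (-2.49). Of all genes tested, 8.84% were higher and 2.67% lower at this threshold. ELL2 is an elongation factor of the super elongation complex, SUPT16H a subunit of the histone chaperone FACT, and INTS11 the endonuclease of the Integrator complex, of which INTS6 is another subunit. The 4 gene medians of INTS6 were 0.909, 0.742, 8.62 and 21.7. Its promoter-window medians were 0.816, 0.742, 0.337 and 15.2, with a difference of 0.028. The median difference of the 27 was -0.23, against 0.22 over all genes. In the promoter window 0 of 16 passed, and the median was 1.26 against 0.24. The genes with the smallest unadjusted p were RTF1 (2.62) and ELL2 (2.11) among the higher and INTS11 (-2.85) and POLR2M (-2.51) among the lower. The limma unadjusted p of POLR2M was 0.083, above 0.05. RTF1 and ELL2 had 1 promoter site in each sarkosyl-free series, INTS11 had 2 and 1, and POLR2M had 1 and 2. RTF1 works with the PAF1 complex, and POLR2M encodes Gdown1, a polymerase-associated protein. For sites per gene 0 of 18 passed the adjusted threshold, with 3 higher and 3 lower at an unadjusted p under 0.05. The shares over all genes tested were 9.23% higher and 13.4% lower. The smallest unadjusted p there were those of MEPCE (1.27), the capping enzyme of 7SK RNA, and POLR2C (1.10) among the higher, and MLLT3 (-1.03) and AFF4 (-1.04) among the lower. POLR2C (8, 6, 4 and 1 sites) and MLLT3 (1, 1, 8 and 3) reached the required mean of 3 sites only through the buffer where they were higher. So did POLR2J (4, 7, 2 and 1) and POLR2M (2, 2, 5 and 6), which are also in these counts. The differences of these genes are therefore no evidence of one.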

How the data were processed

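Per the file headers, each deposited row gives a position, a strand, the mean, quartiles and median of a fitted rate, and a pausing time. The authors' quartiles and medians are used as a score of the rate with no stated unit, and 1 divided by that median equals the pausing time they deposited. Per the submitters' processing notes, cutadapt 1.14, HISAT2 2.1.0, SAMtools, bedtools and hg38 were used. The site caller and the rate model were not given in the sources used here. Of 17 samples, 16 underlie the 4 series, and 1 was not analysed here. The tables were tied to buffer and replicate by their names. The deposited positions count from 1, since the base there was C or G on both strands alike. Positions were placed on GENCODE release 29. A further stretch of sequence is not reported here.

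Log2 pausing times were compared with limma 3.58.1 in R 4.3.3 (lmFit, eBayes, Benjamini-Hochberg adjustment, threshold 0.05), after testing on simulated data. Python 3.11.15, numpy 2.4.6, pandas 2.3.3 and matplotlib 3.10.9 were used besides. Sites per gene needed a mean of at least 3 sites and left out chromosomes X and Y. The p-values measure the spread between 2 series per buffer. The members, lists and tests were chosen with earlier results of these data known. All members were named, as were sites listed in all 4 series, in both series of a buffer within the promoter window, or longest or shortest in a series. Of the other pathway genes, the 2 with the smallest unadjusted p in each direction were named. Further sites were picked after their values were seen. Alternatives changed the centring, scaling, window, start, matching, pseudocount, filters, site certainty and series used.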

Additional observations from a re-analysis of the deposited data

Results flagged for a closer look

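Sites were also listed on alternate contigs of chromosome 6, which were not annotated here. Some such contigs carry second versions of the region that holds NELFE, but the sites were counted over all of them. The sarkosyl replicates listed 121 and 143 such sites and the sarkosyl-free replicates 161 and 86, of which 31, 36, 49 and 20 lay on the minus strand, that of NELFE. They stand out because the gene comparisons above use none of them, and whether any belongs to NELFE was not tested.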

How the results depend on the processing

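Of the alternatives to counts and summary values, 41 left a count of 0 at 0 or kept the sign of a difference, though not always its size, 11 raised a count from 0 and 4 reversed a difference, and of those to single members 158 kept the sign and the side of the threshold but not always the size, 9 brought it past the threshold and 16 reversed the direction. The number of called sites listed in all 4 series rose from 0 to 158 with quantile normalisation and to 161 with a replicate block, under which the HEXIM1 site at 30 bp had a limma adjusted p of 0.0028. It ran from 0 to 1597 when series were left out in turn. The replicate block gave 14 called genes in the promoter window and 235 for sites per gene. Replicate numbers did not pair the series, with correlations of replicate differences of 0.013, 0.031, 0.0097 and 0.0056. A pseudocount of 2 gave 127 called genes for sites per gene. Leaving out a series gave 0 to 1034 called genes for gene medians, 0 to 1065 in the promoter window and 0 to 65 for sites per gene. The lone series of a buffer was then assumed to vary like the other buffer.

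Directions turned as follows, and the cause was not tested. Without centring, the gene difference was -0.71 for NELFCD and -0.89 for POLR2A, and the promoter difference of NELFCD was -0.87. With quantile normalisation these were -0.49, -0.21 and -0.68. With the more certain 50% of sites, the gene difference was 0.36 for CCNT1, -0.82 for POLR2A and -0.0349 for SUPT5H, and the promoter minus other difference of the members was 0.00259 with sarkosyl and 1.27 without it. Without sarkosyl-free replicate 2, NELFCD had -0.16 over the gene and -0.61 in the promoter window, POLR2A had -0.48, SUPT4H1 had 0.0655, the members' promoter share differed by 5.04 percentage points, and the sarkosyl-free promoter minus other difference was 1.22. Leaving out each series in turn gave -10.6 to 5.04 for that share, -2.35 to 1.22 for that difference, and for the gene differences -0.16 to 1.52 in NELFCD, -0.48 to 1.49 in POLR2A and -2.56 to 0.0655 in SUPT4H1. The promoter difference of NELFCD then ran from -0.61 to 0.94. POLR2A had -0.14 without sarkosyl replicate 1, NELFCD had -0.0130 with outermost starts alone, and its site at 49 bp had 0.0492 with matching within 5 bp. The depth behind each site is unknown, which limits what an unlisted position shows.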
